A study of Homo sapiens with 12 samples.

Results

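The comparison described here is that of 1 nM cabazitaxel with vehicle in LNCaP, an established human line of prostate cancer that responds to androgen. It used 8 of the 12 arrays of the series, chosen by their labels: 4 cabazitaxel arrays and 4 vehicle arrays, with 2 of each in charcoal-dextran-treated serum, a serum stripped of steroids, and 2 of each in full serum. All 8 came from the same line carrying the control plasmid MSCV-LMP, and all were exposed for 16 h to the drug or to ethanol, the vehicle. The other 4 arrays, from docetaxel-treated cells, entered only the estimate of the spread between replicates. The RNA was amplified with the Ovation Pico WTA system before labelling for the Human Gene 2.0 ST array, and the labels do not say whether the 2 replicates of a group were grown apart. The spread behind every p-value is therefore that of these arrays, which may be technical.

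Taxanes such as cabazitaxel bind microtubules and stabilise them, which disturbs the mitotic spindle and delays cells in mitosis. Before a cell can copy its DNA, the MCM helicase is loaded on replication origins in G1 phase, and CDC7 and CDK2 activate it as S phase begins. Transcription factors of the E2F family raise the transcripts of these licensing factors, of the replication fork and of nucleotide synthesis at the same time, while genes of mitosis are transcribed later, in G2 phase.

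Values are log2 of the deposited intensities, and a difference is the cabazitaxel mean minus the vehicle mean on that scale. The 11105 genes tested were those named by 1 symbol with at least 2 arrays above the median intensity. Replicates of a group correlated with r between 0.986 and 0.992 across genes, and the array medians lay between 22.19 and 22.43 intensity units. The deposited intensities do not go below 17.3, so the differences of weakly expressed genes are compressed. The identity of the cells matched the label: all 9 named luminal prostate markers were above 32 intensity units in every array. The summed intensity of these 9 genes ran from 2483 to 2525 in vehicle and from 2509 to 2855 with cabazitaxel in charcoal serum, and from 3044 to 3747 and from 3133 to 3252 in full serum. Of the markers of other cell types, FN1 and VIM of the fibroblast list, CD68 of the macrophage and lymphocyte list, NGFR of the basal list and INSM1 of the neuroendocrine list exceeded 32 units in at least 1 array, and no endothelial marker did. FN1 and VIM are also transcribed in cultured tumour cells, and the 5 named fibroblast markers summed to 489 to 575 units (vehicle) and 494 to 562 units (cabazitaxel) in charcoal serum, and to 597 to 784 and 676 to 706 units in full serum.

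Cabazitaxel left most measured transcripts close to their vehicle level. As the mean of both sera, the largest rise was 0.66, of the microRNA gene MIR2909, the largest fall was -0.46, of the readthrough gene MSH5-SAPCD1, and 86 of 11105 genes differed by more than 0.25 in either direction. Limma called 0 genes (0%) at an adjusted p under 0.05, with a smallest adjusted p of 0.74, and 0 genes in either serum alone, with smallest adjusted p of 1.00 in charcoal serum and 0.446 in full serum. An unadjusted p under 0.05 was reached by 520 genes, 276 lower (2.49%) and 244 higher (2.2%), where 555 are expected if no gene differs. The 95% confidence interval of the difference lay within 0.5 of 0 for 10998 genes (99.0%) and within 0.25 of 0 for 8295 genes (74.7%), so larger shifts were bounded for nearly all genes on this compressed scale. Every gene difference below is a measured value that did not pass the adjusted test.

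Genes that build the replication machinery were lower with cabazitaxel in both sera for 35 of the 48 tested members of 3 lists (72.9%, against 25.1% of all genes). On the list of origin licensing and helicase genes, all 21 tested members were lower in the mean of both sera, with a median difference of -0.186, against 48.9% lower and a median of 0.00 over all genes tested. An unadjusted p under 0.05 was reached by 14 of the 21 (66.7%), all lower, against 2.49% of all genes lower at that level. The 14 were 10 after an assumed offset of 16 was subtracted from the intensities and 17 with the replicate number as a term in the fit. Over 19 other settings, 19 to 21 of the 21 were lower. On the list of fork and clamp genes, all 13 tested members were lower, with a median of -0.201, and 8 (61.5%) had an unadjusted p under 0.05. The list of nucleotide synthesis enzymes had 10 of 14 lower (71.4%), with a median of -0.0687 and 2 genes (14.3%) with an unadjusted p under 0.05. Of the 48 genes on these 3 lists, 44 were lower (91.7%, against 48.9% of all genes). Among the 48, 24 had an unadjusted p under 0.05 in that direction (50%, against 2.49% of all genes) and 0 in the other. Genes of these 3 lists made up 13 of the 50 genes with the smallest unadjusted p among those lower. The 48 stand among 11105 genes tested, of which 5426 were lower. The arrays of 15 of the 48 were lower with cabazitaxel than with vehicle without overlap in each serum, against 301 of all genes (2.71%). The 48 genes were read on the same 8 arrays and are not independent replicates, so these counts only describe the lists. In a bulk extract, fewer cells in S phase and less of these transcripts per cell cannot be told apart.

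The licensing factors come first. MCM10, which binds the loaded helicase and is needed to start unwinding, had log2 intensities of 7.01 and 6.78 in vehicle and 6.38 and 6.35 with cabazitaxel in charcoal serum. In full serum it had 7.05 and 7.04 in vehicle and 6.76 and 6.75 with cabazitaxel. All 4 treated arrays lay below both vehicle arrays of their serum, the gap was wider in charcoal serum (-0.53) than in full serum (-0.29), a difference between the sera that did not pass (limma unadjusted p = 0.19), and the mean difference was -0.41 (SE 0.0835, limma adjusted p = 0.74).

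MCM5, a subunit of the MCM2-7 ring, stood at 6.19 and 6.04 in vehicle and 6.0 and 5.47 with cabazitaxel in charcoal serum. In full serum it stood at 6.24 and 6.16 in vehicle and 5.80 and 5.55 with cabazitaxel. The groups did not overlap, although the charcoal cabazitaxel replicates were far apart, and the mean difference was -0.45 (SE 0.104, 95% confidence interval -0.68 to -0.22), which is 0.73 times the vehicle level. MCM3, another ring subunit, went from 6.99 and 6.88 to 6.63 and 6.50 in charcoal serum and from 7.08 and 6.93 to 6.81 and 6.79 in full serum, again without overlap (-0.29, SE 0.0619). Chosen after their values were seen, to complete the ring, MCM2 (-0.18), MCM6 (-0.19) and MCM7 (-0.21) had smaller differences and arrays that overlapped between the groups in at least 1 serum, while those of MCM4 (-0.23) did not overlap. Each of the 6 ring subunits was lower in both sera, with differences from -0.28 to -0.38 in charcoal serum and from -0.07 to -0.53 in full serum.

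Kinase and helicase partners showed the same direction. CDC7, the kinase that fires licensed origins, went from 7.03 and 7.04 to 6.66 and 6.82 in charcoal serum and from 7.03 and 7.08 to 6.93 and 6.75 in full serum (-0.25, SE 0.0678). CDC45, which joins the active helicase, was lower by 0.23 and GINS4, a subunit of the GINS part of that helicase, by 0.18, both without overlap between the groups in either serum. The loading factors did not move as a pair: CDC6 stood at -0.21, with overlapping arrays in full serum, and its partner CDT1 at -0.01 (95% confidence interval -0.17 to 0.15). RECQL4, a helicase gene of the same list, was likewise at -0.01.

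**Figure D1:**
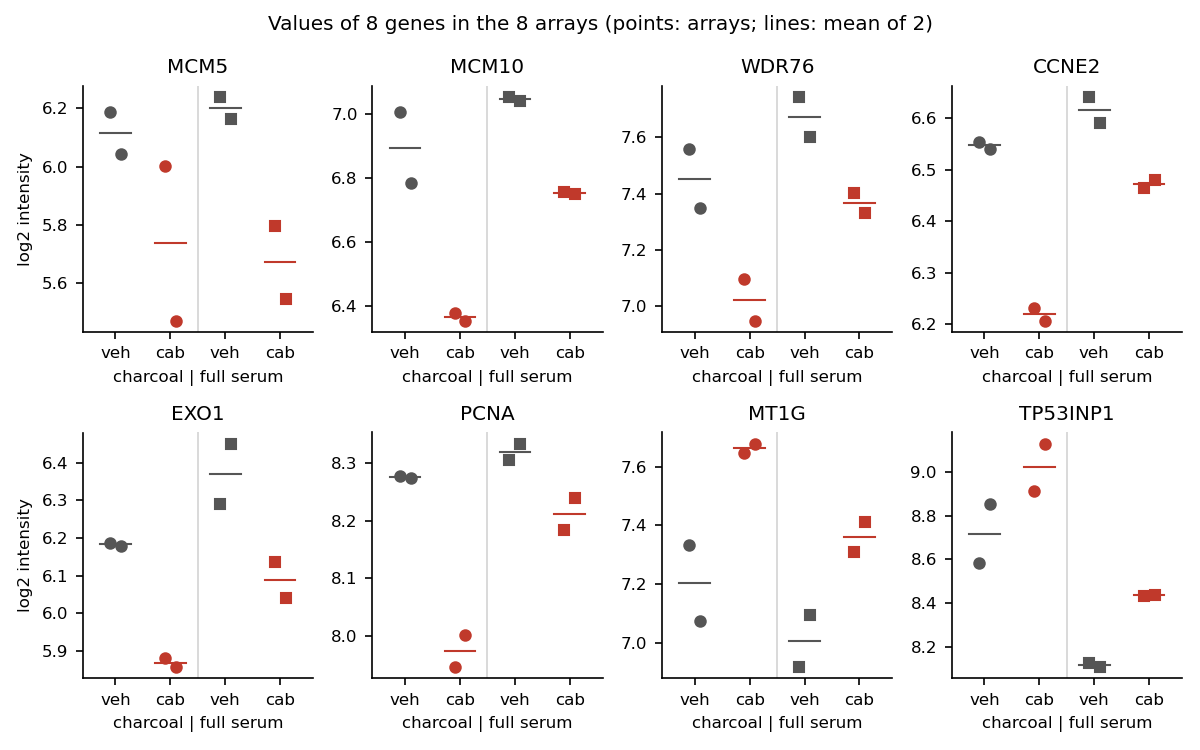
Log2 intensity (y axis) of 8 genes in the 2 vehicle (veh, grey) and 2 cabazitaxel (cab, red) arrays of each serum, charcoal at left and full at right of each panel, with points for arrays and lines for the mean of 2. MCM10 ranged from 6.78 to 7.05 in vehicle and from 6.35 to 6.76 with cabazitaxel, and MT1G and TP53INP1 lay higher than vehicle in each serum. Y axes differ between panels and do not start at 0.

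Genes of the replication fork repeated the pattern. WDR76, which encodes a WD-repeat protein, had 7.56 and 7.35 in vehicle and 7.10 and 6.95 with cabazitaxel in charcoal serum, and 7.74 and 7.60 against 7.40 and 7.33 in full serum. Its treated arrays were below its vehicle arrays in each serum, by -0.43 and -0.30, and it had the smallest unadjusted p of the genes that were lower (-0.37, SE 0.0663, limma adjusted p = 0.74). PCNA, the sliding clamp that holds polymerases on DNA, went from 8.28 and 8.27 to 7.95 and 8.0 in charcoal serum and from 8.31 and 8.33 to 8.18 and 8.24 in full serum (-0.21, SE 0.0507). Its replicates were close together in each group, so the small difference exceeded their spread in each serum. DNA2, a nuclease and helicase that trims lagging-strand fragments, went from 6.39 and 6.57 to 5.95 and 6.13 and from 6.49 and 6.89 to 6.24 and 6.38 (-0.41, SE 0.103). WDHD1, which links the helicase to the lagging-strand polymerase, was lower by 0.23, ASF1B, a histone chaperone, by 0.25 and FEN1, the flap endonuclease, by 0.20, each without overlap in either serum. The fork protection pair TIMELESS and TIPIN stood at -0.07 and -0.10, with a higher mean in treated full-serum arrays for both.

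Among nucleotide synthesis enzymes, RRM2, the regulated subunit of ribonucleotide reductase, had the largest difference (-0.24, SE 0.0698), from 6.21 and 6.17 to 5.98 and 5.77 in charcoal serum and from 6.44 and 6.28 to 6.12 and 6.27 in full serum. The full-serum groups nearly touched, and the list's mean level overlapped between the groups in both sera. TYMS, thymidylate synthase, stood at -0.14, and at -0.07 without charcoal cabazitaxel replicate 2. The list's median of -0.0687 became -0.0253 with that array left out, -0.027 and -0.11 with charcoal vehicle replicates 1 and 2 left out in turn, and -0.12 with charcoal cabazitaxel replicate 1 left out. Its 2 genes with an unadjusted p under 0.05 became 1 to 5 as single arrays were left out.

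The G1/S list of cyclins, E2F factors and the RB family had 19 of 21 tested members lower. Its median was -0.0938, or -0.0624 without full-serum cabazitaxel replicate 2. An unadjusted p under 0.05 was reached by 5 members, all lower (23.8%, against 2.49% of all genes). CCNE2, an E-type cyclin that activates CDK2 at S phase entry, had 6.55 and 6.54 in vehicle and 6.23 and 6.21 with cabazitaxel in charcoal serum, and 6.64 and 6.59 against 6.47 and 6.48 in full serum. Replicates lay close together in every group, treated arrays lay below vehicle arrays in both sera, and the difference was -0.24 (SE 0.0462, limma adjusted p = 0.74). CDK2 itself stood at -0.24, its activating phosphatase CDC25A at -0.24 (-0.36 with an assumed offset of 16 subtracted from the intensities), FBXO5, the inhibitor of the anaphase-promoting complex in S phase, at -0.26, and the repressor E2F8 at -0.34. Their arrays did not overlap in either serum. The later cyclin CCNA2 (0.00) and the G1 cyclin CCND1 (-0.01), which binds CDK4, were near 0.

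The list of DNA damage checkpoint and repair genes had 17 of 21 below 0 and a median of -0.0911. An unadjusted p under 0.05 was reached by 6 members, all lower (28.6%, against 2.49% of all genes). EXO1, an exonuclease of mismatch repair and end resection, went from 6.19 and 6.18 to 5.88 and 5.86 in charcoal serum and from 6.29 and 6.45 to 6.14 and 6.04 in full serum. The shift was alike in both sera, at -0.31 and -0.28 (mean -0.30, SE 0.061). XRCC2, a gene of homologous recombination, went from 6.62 and 6.48 to 6.25 and 6.38 and from 6.66 and 6.73 to 6.50 and 6.39 (-0.25, SE 0.0562). DCLRE1B, a nuclease that protects telomere ends, stood at -0.24, and RAD54L, a recombination motor, at -0.19, or at -0.12 without charcoal cabazitaxel replicate 2. The checkpoint kinase genes CHEK1 and CHEK2 each stood at -0.13, while ATR (0.03), NBN (0.06) and RAD50 (-0.03) were closer to 0.

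**Figure D2:**
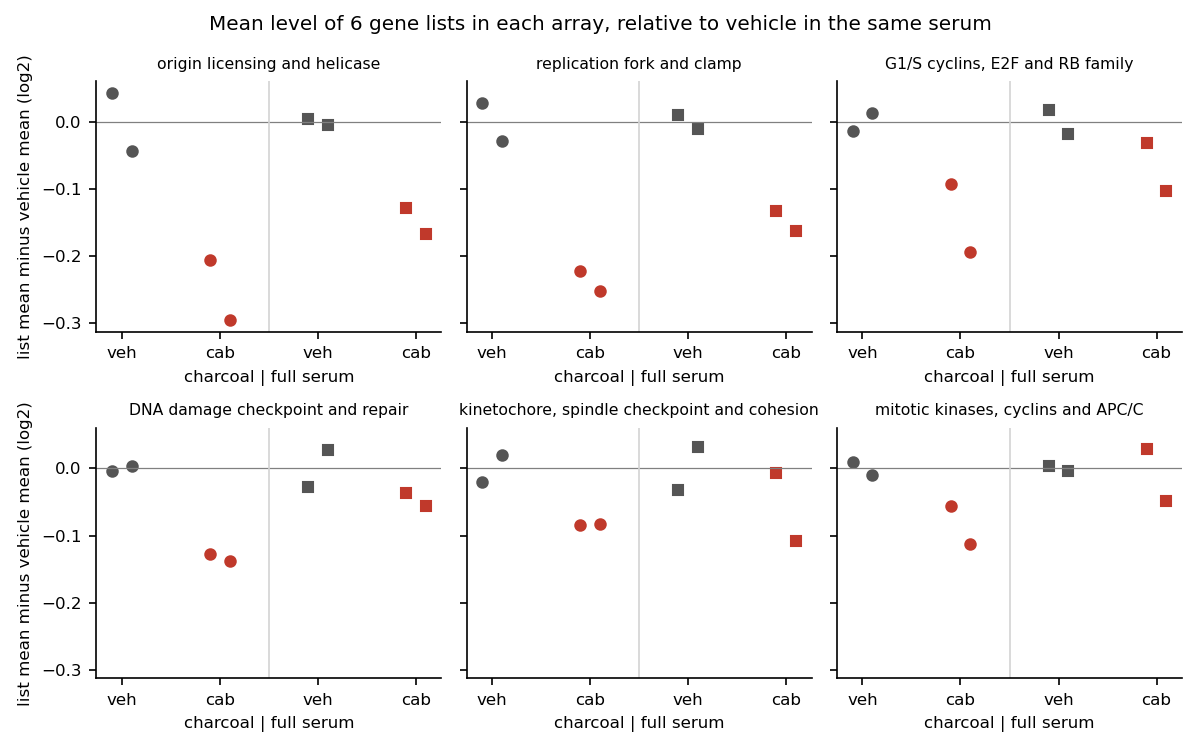
Mean log2 intensity of 6 gene lists in each of the 8 arrays minus the vehicle mean of the same serum (y axis, log2), with vehicle in grey and cabazitaxel in red, charcoal serum at left and full serum at right. Treated arrays lay below vehicle arrays in both sera for origin licensing, fork, G1/S and repair genes, and overlapped with them in full serum for the kinetochore and mitotic kinase lists. In full serum the nearest vehicle and cabazitaxel arrays were close for G1/S genes (means of 6.297 and 6.284, replicate SD 0.0466). The same held for repair genes (6.340 and 6.330, replicate SD 0.0207).

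The mean level of a whole list shows the same per array. For the 21 licensing and helicase genes it was 6.58 and 6.49 in charcoal vehicle, 6.33 and 6.24 in charcoal cabazitaxel, 6.66 and 6.65 in full-serum vehicle, and 6.53 and 6.49 in full-serum cabazitaxel. For the 13 fork genes it was 6.84 and 6.79, then 6.59 and 6.57, then 6.97 and 6.95, then 6.83 and 6.80 in the same order. Treated arrays were lower than vehicle arrays in both sera, and the median difference was -0.281 in charcoal serum and -0.127 in full serum for the licensing list and -0.207 and -0.153 for the fork list. In charcoal serum 20 of the 21 licensing genes were lower and in full serum 18, against 51.8% and 46.7% of all genes. The mean over all genes tested stayed between 5.51 and 5.53 in all 8 arrays. The medians of the licensing and fork lists ranged from -0.251 to -0.175 and from -0.231 to -0.174 over 19 other settings, with the lowest values on the scale with the assumed offset of 16 subtracted.

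E2F factors act through short promoter elements, so the RefSeq promoter windows of GRCh38.p14, each from 250 bases before to 50 bases after the gene start, were searched for the letters TTGGCGC or TTCCCGC on either strand. A match is a description of the letters and not a measured binding site. The letters were found in 1156 of the 8504 tested genes that had a window (13.6%) and in 9.33% of all 27305 windows. They were found in 11 of 17 licensing and helicase genes (64.7%), 4 of 10 fork genes (40%), 9 of 19 repair genes (47.4%), 6 of 16 G1/S genes (37.5%) and 4 of 12 nucleotide synthesis genes (33.3%). The windows of 5 genes whose arrays were lower without overlap in each serum are printed to show how the letters lie, with matches in capitals, 5′ to 3′ along the gene, where GCGGGAA is TTCCCGC read on the other strand. They are MCM3 (chr6:52284693-52284992), PCNA (chr20:5126573-5126872), WDHD1 (chr14:55027050-55027349), XRCC2 (chr7:152676092-152676391) and CDC25A (chr3:48188368-48188667), all on the minus strand.
MCM3: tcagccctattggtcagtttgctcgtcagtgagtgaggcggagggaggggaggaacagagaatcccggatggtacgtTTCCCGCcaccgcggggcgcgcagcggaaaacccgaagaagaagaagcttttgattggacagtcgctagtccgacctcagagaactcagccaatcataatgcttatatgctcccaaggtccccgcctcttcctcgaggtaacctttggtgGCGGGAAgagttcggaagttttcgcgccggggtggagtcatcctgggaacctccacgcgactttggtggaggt
PCNA: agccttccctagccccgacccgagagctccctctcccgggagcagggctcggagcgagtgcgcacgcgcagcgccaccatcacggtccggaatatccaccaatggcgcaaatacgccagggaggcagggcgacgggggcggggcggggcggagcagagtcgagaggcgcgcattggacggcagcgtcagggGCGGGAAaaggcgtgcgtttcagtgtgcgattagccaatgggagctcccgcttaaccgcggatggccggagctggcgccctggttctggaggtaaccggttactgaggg
WDHD1: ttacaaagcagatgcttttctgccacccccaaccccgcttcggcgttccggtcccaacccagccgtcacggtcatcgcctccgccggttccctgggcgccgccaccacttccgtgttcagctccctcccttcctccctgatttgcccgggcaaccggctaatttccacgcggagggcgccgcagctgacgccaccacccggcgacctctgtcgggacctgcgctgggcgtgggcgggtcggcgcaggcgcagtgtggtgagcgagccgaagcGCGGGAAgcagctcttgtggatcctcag
XRCC2: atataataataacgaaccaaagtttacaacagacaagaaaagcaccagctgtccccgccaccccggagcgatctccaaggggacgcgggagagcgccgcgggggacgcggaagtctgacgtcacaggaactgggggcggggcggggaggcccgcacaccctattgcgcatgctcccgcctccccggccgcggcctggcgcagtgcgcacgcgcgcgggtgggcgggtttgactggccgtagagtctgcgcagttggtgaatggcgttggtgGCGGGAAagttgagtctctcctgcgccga
CDC25A: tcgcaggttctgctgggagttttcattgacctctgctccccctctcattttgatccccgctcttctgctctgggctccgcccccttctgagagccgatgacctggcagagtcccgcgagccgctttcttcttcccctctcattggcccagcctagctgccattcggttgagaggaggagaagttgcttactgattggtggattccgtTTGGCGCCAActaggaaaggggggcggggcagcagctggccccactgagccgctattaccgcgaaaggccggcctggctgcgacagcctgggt
MCM3 carried 2 matches, which begin at -173 and -23 from the start, and CDC25A carried TTGGCGC on both strands, at -43 and -40, in 1 overlapping palindromic run. In PCNA the match began 59 bases before the start, and in WDHD1 and XRCC2 23 and 22 bases after it. The windows of MCM10, EXO1, RRM2 and FBXO5 held neither set of letters.

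Across all genes with a window, those with the letters were lower at an unadjusted p under 0.05 in 5.19% of cases and higher in 2.16%, and those without them in 2.16% and 1.95%. Seen from the other side, the letters were in 60 of 219 genes that were lower at an unadjusted p under 0.05 (27.4%) and in 25 of 168 that were higher (14.9%). With every listed gene left out, the shares were 44 of 175 (25.1%) and 24 of 160 (15%), against 1082 of 8148 (13.3%) for all tested genes on no list. Whether E2F factors act on the genes that were lower was not tested. For genes whose arrays were separate in both sera the contrast was smaller, at 18.6% of those lower and 12.6% of those higher. Other letters also differed between the genes lower and higher at an unadjusted p under 0.05, with CCAAT, the NF-Y letters, in 46.1% and 36.3% (36.6% of tested genes) and TTTGAA in 14.2% and 10.1%, while TGCACNC, the metal response letters, were in 9.59% and 11.9% (11.6% of tested genes). The median difference of genes with the letters was -0.00786, close to that of genes without them (0.00206). TTTGAA, the letters of the cell cycle homology region of late cell cycle genes, were in 9.96% of the windows of tested genes and in 57.1%, 55.6% and 56.7% of those of the mitotic kinase, kinetochore and kinesin lists.

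Mitotic genes, the process that taxanes disturb, leaned lower, though less uniformly than replication genes. On the mitotic kinase, kinetochore and kinesin lists together, 64 of 94 tested members were lower (68.1%, against 48.9% of all genes) and 30 higher. Of these 94, 16 were lower and 3 higher at an unadjusted p under 0.05. The mean level of each of the 3 lists was lower with cabazitaxel in charcoal serum and overlapped in full serum. For the kinesin list the charcoal groups nearly touched, at 6.481 in vehicle and 6.474 with cabazitaxel. The mean over all genes tested showed the same pattern on a smaller scale, with nearest charcoal arrays at 5.5211 in vehicle and 5.5185 with cabazitaxel. On the list of mitotic kinases, cyclins and anaphase-promoting complex genes, 16 of 27 were lower (59.3%, against 48.9% of all genes). Their median was -0.0189, and 0.0158 without full-serum cabazitaxel replicate 2. Leaving out full-serum vehicle replicate 1 gave -0.0862. Of the 27, 6 were lower (22.2%, against 2.49% of all genes) and 2 higher (7.41%, against 2.2%) at an unadjusted p under 0.05. CCNB2, a B-type cyclin that drives mitotic entry, was higher, from 7.56 and 7.53 to 7.71 and 7.78 in charcoal serum and from 7.70 and 7.68 to 7.81 and 7.75 in full serum (0.15, SE 0.0486, limma adjusted p = 0.958). Named after their values were seen, CKS2, a small CDK-binding protein, stood at 0.18 and cyclin B1 (CCNB1) at 0.14. The CDK partner of these cyclins, CDK1, stood at -0.17, AURKB of the chromosomal passenger complex at -0.24, MELK at -0.21 and HASPIN, a histone H3 kinase, at -0.28, or -0.18 without charcoal cabazitaxel replicate 2. PLK1 (0.04), AURKA (0.02), CDC20 (0.04) and PTTG1 (0.00) were near 0.

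On the kinetochore, checkpoint and cohesion list, 28 of 35 were lower, with a median of -0.0735. At an unadjusted p under 0.05, 8 were lower (22.9%, against 2.49% of all genes) and 1 higher (2.86%, against 2.2%). The 8 became 3 when full-serum cabazitaxel replicate 2 was left out, 4 when charcoal vehicle replicate 2 was, and 5 when full-serum vehicle replicate 2 was. CENPU, a centromere protein, went from 7.18 and 7.29 to 6.83 and 7.02 in charcoal serum and from 7.31 and 7.42 to 7.27 and 7.18 in full serum (-0.23, SE 0.0601). SMC1A of the cohesin ring stood at -0.16 and SGO1, which protects centromeric cohesion, at -0.21, while the spindle checkpoint genes MAD2L1 (-0.01), MAD1L1 (-0.01) and BUB1 (0.03) were near 0. SKA2, a kinetochore protein, was the 1 higher gene, at -0.02 in charcoal serum and 0.38 in full serum. The kinesin and spindle motor list had 20 of 32 members below 0 (62.5%, against 48.9% of all genes). Its median was -0.0391, or 0.0057 without charcoal cabazitaxel replicate 1. KIF11, the motor that separates spindle poles, stood at -0.10 and CKAP2L, a spindle protein, at -0.18. KIF24, a kinesin outside that list, stood at -0.30, with -0.47 after the offset of 16 was subtracted.

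Microtubule regulators, the partners of the drug's target, had 17 of 31 lower (54.8%, against 48.9% of all genes) and 14 higher. Their median was -0.00599, and 5 of 19 other settings turned its sign. No tubulin gene was named in the annotation. STMN3, a stathmin that sequesters tubulin, stood at 0.18 (0.27 after the offset of 16 was subtracted and 0.12 without full-serum vehicle replicate 2). MAP1B, a microtubule-binding protein, stood at 0.26, with charcoal vehicle replicates of 5.99 and 6.44, and at 0.14 without the first of them. MAPT, MAP4 and STMN1 stood at 0.09, -0.01 and 0.07.

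**Figure D3:**
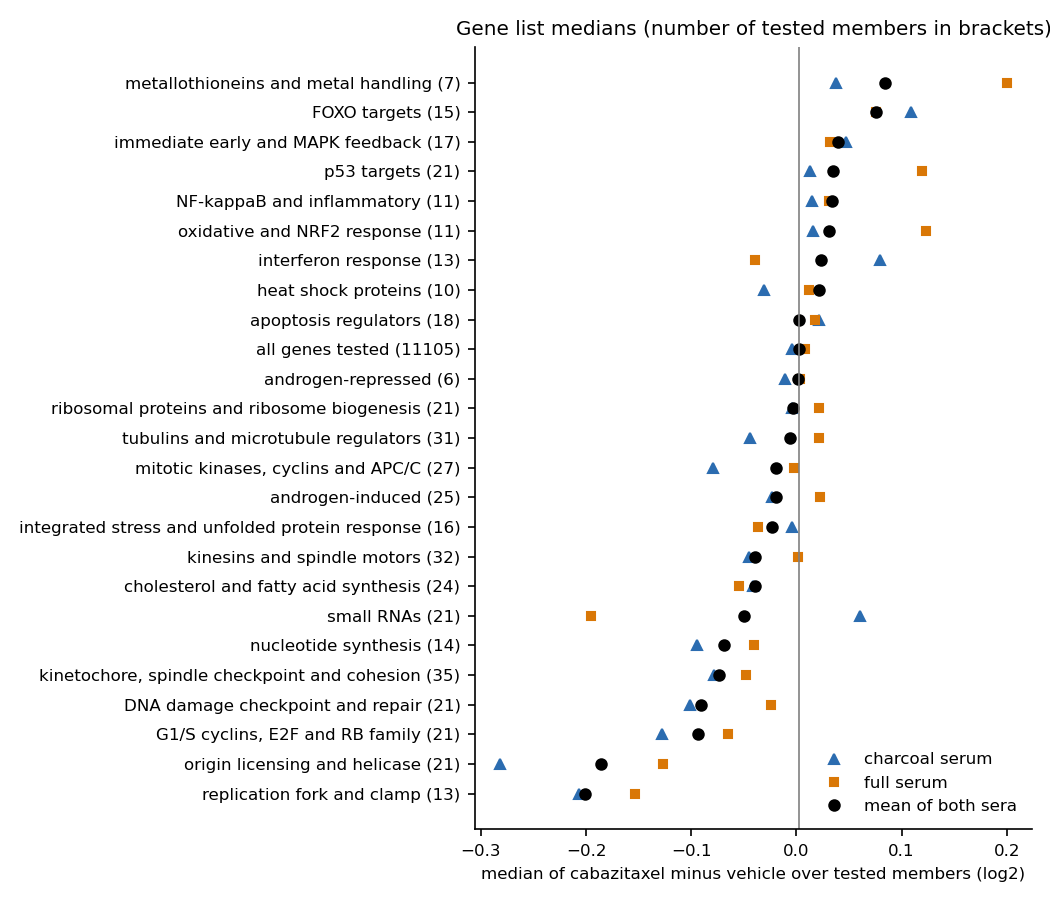
Median difference, cabazitaxel minus vehicle (x axis, log2), over the tested members of 24 gene lists and of all genes tested, with black circles for the mean of both sera, blue triangles for charcoal serum and orange squares for full serum, and the number of tested members in brackets; the vertical line marks the median of all genes tested. The licensing and fork lists stood lowest, at -0.186 and -0.201, and the metallothionein and FOXO lists highest, at 0.0841 and 0.0756.

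At the upper end stood MT1G, a metallothionein that binds zinc and copper. It had 7.33 and 7.07 in vehicle and 7.65 and 7.68 with cabazitaxel in charcoal serum, and 6.92 and 7.09 against 7.31 and 7.41 in full serum. Both treated arrays exceeded both vehicle arrays in each serum, and the difference of 0.41 (SE 0.0686, 95% confidence interval 0.26 to 0.56) had the smallest unadjusted p of all genes (9.33e-05, limma adjusted p = 0.74). The other metallothioneins were less separate, with MT2A at 0.12, MT1F at 0.20 (0.10 without charcoal cabazitaxel replicate 1), MT1X at 0.08 (0.00 and 0.17 without full-serum cabazitaxel replicates 2 and 1 in turn) and MT1E at 0.03. Of the 7 tested genes of the list 5 were higher (71.4%, against 51.1% of all genes), with a median of 0.0841, and 0.0194 without charcoal vehicle replicate 2. Metallothionein genes are near-identical copies, and signal shared between their probes was not tested.

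TP53INP1, a p53-inducible gene of autophagy and cell death, went from 8.59 and 8.85 to 8.91 and 9.13 in charcoal serum and from 8.13 and 8.11 to 8.43 and 8.44 in full serum. It was higher by 0.30 and 0.32 in the sera, without overlap (mean 0.31, SE 0.0698, limma adjusted p = 0.854). Of 21 p53 targets 15 were higher (71.4%, against 51.1% of all genes), and 3 of them had an unadjusted p under 0.05 (14.3%, against 2.2%). Their median was 0.0352, which was 0.0918 after the offset of 16 was subtracted and 0.0194 without charcoal cabazitaxel replicate 2. SESN1, a stress-induced inhibitor of mTOR signalling, stood at 0.18 and the kinase PLK2 at 0.16 (0.25 after that subtraction). The list's mean level was higher with cabazitaxel in full serum and overlapped in charcoal serum, and the cell death targets BBC3 (0.11), PMAIP1 (-0.04) and BAX (-0.09, and -0.03 and -0.14 without full-serum vehicle replicates 1 and 2 in turn) had mixed signs. Of the 21 targets, 11 were higher in charcoal serum and 18 in full serum, against 48.2% and 53.3% of all genes.

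FOXO targets, which include growth-arrest and nutrient-sensing genes, were higher for 13 of 15, with a median of 0.0756, against 51.1% of all genes higher. Their mean level was higher with cabazitaxel in both sera, at 6.10 and 6.12 against 6.19 and 6.20 in charcoal serum and at 5.93 and 5.88 against 5.98 and 6.04 in full serum. TP53INP1 and SESN1 stand on both this and the p53 list, each among the 298 genes (2.68%) that were higher without overlap in both sera. TXNIP, an inhibitor of thioredoxin that restrains glucose uptake, completed the 3 members with an unadjusted p under 0.05 (20%, against 2.2% of all genes higher). TXNIP went from 7.95 and 7.90 to 8.0 and 8.16 in charcoal serum and from 7.57 and 7.61 to 7.87 and 7.83 in full serum (0.20, SE 0.0599). FOXO3 stood at 0.16 (0.09 as the mean over its transcript clusters and 0.28 after the offset was subtracted) and FOXO1 at 0.14. The list median was 0.171 after that subtraction and 0.121 without full-serum cabazitaxel replicate 1.

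Other genes with small unadjusted p on the higher side were MORN4 (0.26), APOO (0.37), which encodes a protein of the mitochondrial inner membrane, PRAMEF22 (0.40), LSP1P4 (0.31), SBSN (0.24), HSPA1L (0.23), ZNF208 (0.34), ADCY1 (0.18) and NUCB1 (0.23). APOO went from 6.43 and 6.46 to 6.85 and 7.04 in charcoal serum and from 6.45 and 6.40 to 6.60 and 6.73 in full serum, and PRAMEF22, a member of a multicopy family, from 6.28 and 6.07 to 6.66 and 6.47 and from 6.11 and 6.10 to 6.64 and 6.39. Both were separate from vehicle in each serum. On the lower side stood OGFR (-0.29), ZNF850 (-0.39), ZNF367 (-0.41) and IGF1R (-0.28), the receptor of insulin-like growth factors, which went from 4.80 and 4.91 to 4.68 and 4.60 and from 5.33 and 5.60 to 5.11 and 5.12. Several of these genes sit near the floor of the scale, and the assumed offset of 16, once subtracted, gave 0.51 for SBSN, 0.39 for HSPA1L, 0.64 for ZNF208, 0.33 for ADCY1, 0.40 for NUCB1, -0.53 for OGFR, -0.69 for ZNF850 and -0.56 for IGF1R.

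**Figure D4:**
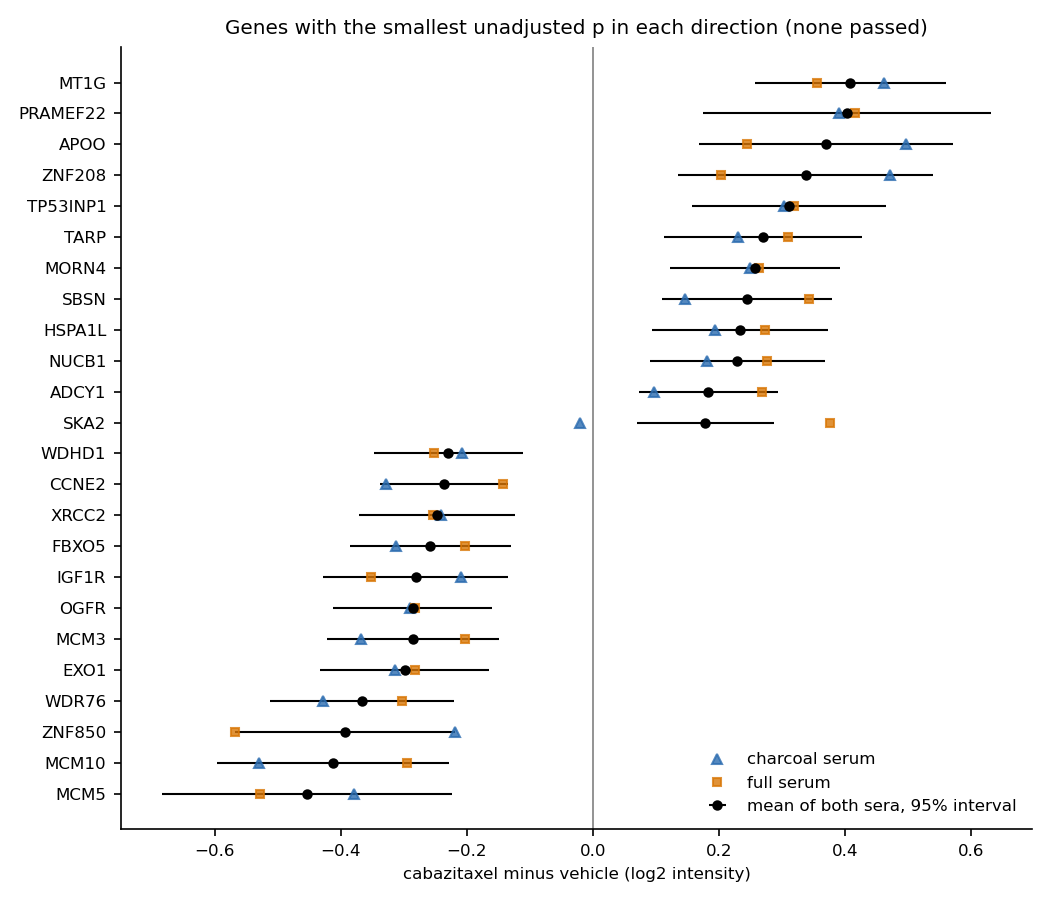
Difference, cabazitaxel minus vehicle (x axis, log2 intensity), of the 12 genes with the smallest unadjusted p in each direction, with black circles and bars for the mean of both sera and its 95% confidence interval, blue triangles for charcoal serum and orange squares for full serum. Each of these intervals lies on 1 side of 0, as follows from the choice of the smallest p, and none of the genes passed the adjusted test.

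Androgen-induced genes had 15 of 25 lower (60%, against 48.9% of all genes) and 10 higher. Their median of -0.0194 turned sign in 3 of 19 other settings (0.00957, 0.014 and 0.0231 without charcoal vehicle replicate 1, charcoal cabazitaxel replicate 2 or full-serum vehicle replicate 2). At an unadjusted p under 0.05 stood 2 of the 25 (8%, against 2.2% of all genes higher), both higher, TARP and KRT18. TARP, a prostate-expressed transcript, went from 4.87 and 4.77 to 5.09 and 5.02 in charcoal serum and from 6.66 and 6.70 to 6.98 and 7.0 in full serum, without overlap (0.27, or 0.42 after the offset of 16 was subtracted). KLK3, the gene of prostate-specific antigen, had 9.41 and 9.12 in vehicle and 9.52 and 8.90 with cabazitaxel in charcoal serum, and 10.24 and 10.52 against 10.12 and 10.23 in full serum. The charcoal groups overlapped and the full-serum groups did not, and the difference of -0.13 had a 95% confidence interval of -0.40 to 0.14 and stood at 0.03 without charcoal cabazitaxel replicate 2. KLK2, a related kallikrein, stood at -0.14, from -0.23 to -0.05 as single charcoal vehicle arrays were left out. The keratin gene KRT18 stood at 0.01 in charcoal serum and 0.34 in full serum. FOLH1, the gene of prostate-specific membrane antigen, had a difference of 0.11 with a wide 95% confidence interval of -0.22 to 0.45, and stood at -0.08 and 0.31 without charcoal cabazitaxel replicates 2 and 1 in turn. Among androgen-repressed genes 3 of 6 were higher, with a median of 0.00172.

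The stress and growth lists gave small medians of either sign. Apoptosis regulators had 9 of 18 higher, with a median of 0.0022, and BIK, a BH3-only death gene, had 5.63 and 5.57 in vehicle and 6.18 and 5.92 with cabazitaxel in charcoal serum, against 5.70 and 5.70 and 5.65 and 5.73 in full serum. Its difference was thus 0.45 in charcoal serum and -0.01 in full serum. Medians were 0.0313 for 11 oxidative response genes, -0.0236 for 16 genes of the integrated stress and unfolded protein response, 0.0219 for 10 heat shock genes, 0.0392 for 17 immediate early genes, 0.0341 for 11 NF-kappaB genes (0.0826 after the offset of 16 was subtracted) and 0.023 for 13 interferon response genes. Cholesterol and fatty acid synthesis stood at -0.0398 over 24 genes, ribosomal genes at -0.00278 over 21 genes and the xenobiotic list at 0.0128 over 2 genes. Leaving out 1 array turned the sign of the apoptosis, ribosomal, heat shock and xenobiotic medians in 3 cases each. Without full-serum vehicle replicate 2 the oxidative, integrated stress and heat shock medians were -0.00568, 0.00328 and -0.0226, and the immediate early median was 0.0144. The interferon median was -0.0221 without full-serum cabazitaxel replicate 1, and that of cholesterol and fatty acid synthesis 0.00602 without charcoal cabazitaxel replicate 2. The 21 small RNAs had a median of -0.0498, made of 0.061 in charcoal serum and -0.196 in full serum, and of 0.0269 without full-serum cabazitaxel replicate 2, whose small RNA mean of 5.50 was the lowest of the 8 arrays.

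Agreement between the sera was examined because they share no array. Over all 11105 genes the 2 differences correlated weakly, with r of 0.0732 and rho of 0.0615 across genes, which are not independent replicates, and 5747 genes (51.8%) had the same sign. In charcoal serum 260 genes were lower (2.34%) and 206 higher (1.86%) at an unadjusted p under 0.05, and 261 of these 466 (56.0%) had the same sign in full serum. In full serum 202 were lower (1.82%) and 244 higher (2.2%), and 272 of these 446 (61.0%) had the same sign in charcoal serum. The share was highest for genes lower in full serum, at 136 of 202 (67.3%). Among the 48 replication genes 35 were lower in both sera, against 2789 of all genes (25.1%).

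**Figure D5:**
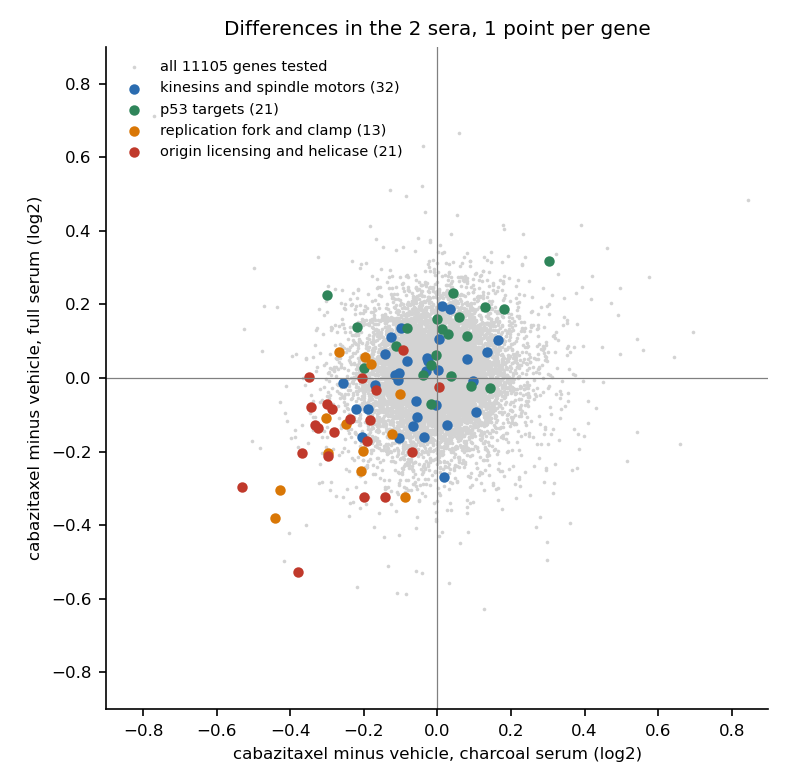
Difference in charcoal serum (x axis, log2) against the difference in full serum (y axis, log2), 1 point per gene, with all 11105 genes in grey and 4 lists in colour. The cloud of all genes shows little relation (r of 0.0732), while the origin licensing (red) and fork (orange) genes lie mostly in the lower left, where both differences are below 0, and MCM5 lies at -0.38 and -0.53.

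No gene passed the test of a difference between the sera, with 0 of 11105 called (0%), a smallest adjusted p of 0.999 and an unadjusted p under 0.05 for 227 genes relatively higher in full serum (2.04%) and 153 relatively lower (1.38%). Nearest to the threshold were ZNF701 (-0.47 in charcoal serum and 0.20 in full serum), EIF5A2 (-0.30 and 0.21), CENPV (-0.32 and 0.33) and CUL4A (-0.29 and 0.13), which were relatively higher in full serum. In the other direction they were CCDC87 (0.28 and -0.22), ADAMTSL4 (0.17 and -0.33), RUFY2 (0.20 and -0.24) and SNX16 (0.03 and -0.56, with a mean of -0.26 that was -0.45 after the offset of 16 was subtracted). EIF5A2 encodes a translation factor isoform and CUL4A a scaffold of ubiquitin ligases that act on licensing factors. Of the replication genes named above, TIPIN reached an unadjusted p under 0.05 for this difference (-0.27 in charcoal serum and 0.07 in full serum).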

How the data were processed

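The authors deposited 1 table of array intensity values for 44629 transcript clusters, which were RMA-normalized and filtered for low expression, per the submitters' processing notes and design text; the RMA version and the filter threshold are not given in the sources used here. The values were on a linear scale, from 17.3 to 6307, and log2 was taken. Of the values, 57.5% were below 24, so the stated filter is not apparent in the table. Array annotation named 15835 clusters with 1 symbol each; for the 651 genes with several, the cluster with the highest mean over 12 arrays was kept, and 3707 genes with fewer than 2 arrays above the overall median were not tested. Read depth does not apply to arrays; the number of arrays sets the precision.

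Limma 3.58.1 in R 4.3.3 fitted 1 mean for each of the 6 groups over the 12 arrays (6 residual and 5.08 prior degrees of freedom). Contrasts were cabazitaxel minus vehicle in each serum, their mean and their difference, with two-sided p-values adjusted by Benjamini-Hochberg over the 11105 genes, called under 0.05. The script was tested on simulated data. Named were the 12 genes with the smallest unadjusted p in each direction, the 6 in each direction with the largest smaller serum difference among those separate in both sera, up to 4 members of each of 26 lists, the 4 genes in each direction with the smallest p between the sera, and luminal markers; other genes of the lists were chosen after their values were seen. Small RNA and uncharacterised symbols were not named by the p-value rules. The lists held 771 entries, of which 464 were tested; 1 list is not reported here. The comparison, members and lists were chosen with earlier results of these data known, so nothing here is independent support for them. Alternatives were the replicate block, other filters, an assumed offset of 16, 2 scalings, 8 arrays only, an additive serum term, other variance models, other cluster rules, the methods' t-test and each of the 8 arrays left out. Promoter sequences are from RefSeq (GRCh38.p14).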

Additional observations from a re-analysis of the deposited data

Results flagged for a closer look

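For 9 of the genes named by the rules, both cabazitaxel arrays lay on one side of both vehicle arrays in charcoal serum and on the other side in full serum; 443 of all 11105 genes tested (3.99%) were of this kind. All but ATF4 and FOXA1 were named for their small unadjusted p between the sera, so the pattern largely follows from that choice. The difference between the sera did not pass for any of the 9 genes (limma adjusted p of 0.999 or more), so it was flagged by this pattern alone. In full minus charcoal log2 difference it was 0.67 for ZNF701, 0.51 for EIF5A2, 0.65 for CENPV, 0.42 for CUL4A, -0.49 for CCDC87, -0.50 for ADAMTSL4 and -0.44 for RUFY2. ZNF701 went from 5.14 and 5.18 to 4.79 and 4.59 in charcoal serum and from 4.94 and 4.96 to 5.06 and 5.24 in full serum. CENPV, a centromere protein gene, went from 5.08 and 5.18 to 4.79 and 4.82 and from 4.64 and 4.90 to 5.09 and 5.11. ATF4, the transcription factor of the integrated stress response, had -0.20, from 8.61 and 8.57 to 8.73 and 8.77 in charcoal serum and from 8.74 and 8.67 to 8.66 and 8.67 in full serum. FOXA1, a pioneer transcription factor of luminal prostate cells, had 0.12, from 6.61 and 6.59 to 6.50 and 6.54 and from 6.53 and 6.49 to 6.55 and 6.54.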

How the results depend on the processing

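No gene was called in any of the 80 combinations of a comparison with an alternative, by limma or by the methods' t-test. The smallest adjusted p over these combinations was 0.185 for the mean of both sera, 0.445 for charcoal serum, 0.0932 for full serum and 0.42 for the difference between the sera. With the replicate block, 0 genes were called in each of the 4 comparisons and 655 genes had an unadjusted p under 0.05 in the mean of both sera. The replicate deviations of the 4 groups correlated with r from 0.0931 to 0.326 over 6 pairs of groups, and with 2 numbers a group the numbers were not taken to pair the samples. Genes with an unadjusted p under 0.05 in the mean numbered from 303 (stricter filter) to 728 (no filter). In full serum they numbered 730 without full-serum vehicle replicate 1, against 446. The methods' t-test gave 450 genes at an unadjusted p under 0.05 in the mean and 0 after Benjamini-Hochberg adjustment. Of 2414 values of the 128 named genes under alternatives, 25 had the other sign. The licensing, fork, nucleotide, G1/S, repair, kinetochore, p53, metallothionein, immediate early, NF-kappaB and FOXO medians kept their sign in all 19 settings that give a median. With 2 arrays a group, the median half-width of the 95% interval was 0.206 in a single serum and 0.146 in the mean of both, and intensities near the floor understate differences.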
